A study of Mus musculus with 64 samples.

Results

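Glutathione transferases join the tripeptide glutathione to reactive and fat-soluble compounds, which can then leave the cell. 10 mouse genes of this family were followed in liver: Gsta2, Gsta3 and Gsta4 of the alpha class, Gstm1, Gstm2, Gstm3, Gstm4 and Gstm6 of the mu class, Gstp1 of the pi class and Gstt1 of the theta class. They were taken by exact gene name from a table of 53008 gene names, all 10 were in it, and all 10 passed the filter on low counts that left 17318 genes to be tested. Another 21 genes of the family were in the table, and 18 of these were tested.

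Liver RNA was compared between HuMgat2 mice, which carry human MOGAT2 in a humanized model, and wild-type (WT) mice, each fed a high-fat diet (HFD) or chow for 16 weeks. The 4 groups were HuMgat2 on HFD, HuMgat2 on chow, WT on HFD and WT on chow, with 4 sequenced libraries each. MOGAT2 is an enzyme that makes diacylglycerol from monoacylglycerol and is best known for fat absorption in the intestine. The labels used here give no strain, sex or age, and number the 16 libraries without saying that each came from a separate mouse, so the p-values measure the spread between these libraries.

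In liver the family is among the most abundant sets of cytosolic enzymes, and it takes up products of lipid oxidation such as 4-hydroxynonenal as well as drugs and toxins. The cytosolic enzymes work as dimers within a class. Many of their genes are induced through the transcription factor NRF2, which binds antioxidant response elements, and some through the receptors CAR, PXR and AHR. Pi-class enzymes are known to be more abundant in the livers of male than of female mice.

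Several of these genes have relatives so alike that short reads cannot always be assigned between them, and the stretches below show it. Each line gives coding sequence (for Gstp-ps and Gstm2-ps1, sequence of the pseudogene) of GENCODE M21 transcripts, 5′ to 3′. The capitals mark the first 60 bases of the longest run shared by every gene of its set, after 25 bases in lower case. The run was 300 bases long in the pi set, starting at base 331 of the Gstp1 coding sequence. It was 171 bases in the alpha set and 104 bases in the mu set, which includes both Gstm1 and Gstm3.
Gstp1: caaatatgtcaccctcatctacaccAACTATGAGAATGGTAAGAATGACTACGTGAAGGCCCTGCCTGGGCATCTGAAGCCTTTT
Gstp2: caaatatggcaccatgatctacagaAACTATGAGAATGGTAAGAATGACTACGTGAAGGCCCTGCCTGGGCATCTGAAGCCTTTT
Gstp-ps: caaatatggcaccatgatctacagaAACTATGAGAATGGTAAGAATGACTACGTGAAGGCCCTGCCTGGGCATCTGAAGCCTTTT
Gsta2: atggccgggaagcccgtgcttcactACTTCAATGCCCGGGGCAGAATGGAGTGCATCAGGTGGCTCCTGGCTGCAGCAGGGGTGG
Gsta1: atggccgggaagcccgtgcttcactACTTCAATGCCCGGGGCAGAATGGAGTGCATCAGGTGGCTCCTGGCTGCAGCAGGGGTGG
Gsta5: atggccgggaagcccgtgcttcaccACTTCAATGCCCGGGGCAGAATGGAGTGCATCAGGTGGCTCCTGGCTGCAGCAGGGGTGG
Gm3776: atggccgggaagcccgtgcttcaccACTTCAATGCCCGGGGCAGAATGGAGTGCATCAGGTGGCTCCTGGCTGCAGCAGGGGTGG
Gstm1: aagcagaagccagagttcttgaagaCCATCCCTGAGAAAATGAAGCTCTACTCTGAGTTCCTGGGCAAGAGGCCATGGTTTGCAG
Gstm3: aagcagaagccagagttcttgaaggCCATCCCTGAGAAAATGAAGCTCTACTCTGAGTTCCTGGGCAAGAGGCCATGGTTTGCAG
Gstm2-ps1: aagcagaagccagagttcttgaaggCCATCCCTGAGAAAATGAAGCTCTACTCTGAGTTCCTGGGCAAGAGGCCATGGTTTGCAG
The capitals are identical throughout each set. Of all 75-base windows in its transcripts, Gsta2 shared 36.6% with another gene of the family, Gstp1 29.2%, Gstm3 12.3%, Gstm1 8.28% and Gstm6 2.24%. Gsta3, Gsta4, Gstm2, Gstm4 and Gstt1 shared 0%.

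Promoter sequence was found in the RefSeq table (GRCm38.p6) for 9 of the 10 genes, all but Gsta4. The 4 printed here belong to the genes with the largest diet change in WT (Gsta2), with a difference in diet change between the genotypes (Gsta3), and with the highest levels (Gstm1, Gstp1). Each runs 5′ to 3′ along the gene's strand over 250 bases before the start site and 50 after it. Capitals mark TGACNNNGC, the core of the antioxidant response element, or GCGTG, the core of the xenobiotic response element bound by AHR.
Gsta2, chr9:78347096-78347395, minus strand: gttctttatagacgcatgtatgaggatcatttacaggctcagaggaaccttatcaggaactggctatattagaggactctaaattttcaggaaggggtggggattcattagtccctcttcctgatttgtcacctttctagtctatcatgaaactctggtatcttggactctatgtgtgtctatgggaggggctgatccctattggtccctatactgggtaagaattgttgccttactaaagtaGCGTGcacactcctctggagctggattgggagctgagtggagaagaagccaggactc
Gsta3, chr1:21240335-21240634, plus strand: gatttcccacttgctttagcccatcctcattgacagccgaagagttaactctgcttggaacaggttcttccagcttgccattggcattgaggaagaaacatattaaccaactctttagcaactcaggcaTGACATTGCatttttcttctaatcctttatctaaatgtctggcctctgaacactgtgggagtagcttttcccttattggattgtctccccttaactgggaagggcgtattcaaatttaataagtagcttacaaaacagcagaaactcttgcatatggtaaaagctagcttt
Gstm1, chr3:108017769-108018068, minus strand: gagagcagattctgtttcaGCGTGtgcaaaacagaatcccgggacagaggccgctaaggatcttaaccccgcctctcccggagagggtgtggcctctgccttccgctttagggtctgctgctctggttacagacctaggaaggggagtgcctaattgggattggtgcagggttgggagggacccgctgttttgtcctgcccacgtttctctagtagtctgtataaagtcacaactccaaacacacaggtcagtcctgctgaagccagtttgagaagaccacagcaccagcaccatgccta
Gstp1, chr19:4037863-4038162, minus strand: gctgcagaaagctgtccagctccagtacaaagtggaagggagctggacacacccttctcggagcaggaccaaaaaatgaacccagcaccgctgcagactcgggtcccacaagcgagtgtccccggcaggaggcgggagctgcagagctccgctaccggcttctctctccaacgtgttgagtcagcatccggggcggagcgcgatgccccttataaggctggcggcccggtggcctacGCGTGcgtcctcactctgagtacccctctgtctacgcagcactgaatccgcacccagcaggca
Both strands were searched, and the cores can overlap, as they did in Gstm5 of the wider family. For Gstm1 the first of its RefSeq entries is shown. TGACNNNGC was found in 1 of the 9 genes, Gsta3, as TGACATTGC at bases -121 to -113 from the start site. It stands in 12.4% of all 32851 promoters of the same length. GCGTG was found in Gsta2, Gstm1 and Gstp1, and in 32.4% of all promoters. The printed promoters are thus those, among the 9 genes, with a match to either core. Gstm4, whose diet change also differed between the genotypes, had no match and is not printed. The common form of the antioxidant response element, TGACTCAGC, was in none of the 9 and in 0.454% of all promoters. These matches describe letters in a window and say nothing of binding.

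Total counts ranged from 12.4 to 25.8 M per library. WT HFD library 4 stood apart, with 12.4 M counts, 0.85% of them from albumin against 3.259% to 6.018% in the other 15, a summed macrophage marker level of 926 CPM against 147.5 to 372.9, and a summed hepatocyte marker level of 39910 CPM against 66420 to 103200. All 8 hepatocyte markers were detected in every library. Mouse Mogat2 had 0 to 2 counts per library in HuMgat2 on HFD, 0 to 1 in HuMgat2 on chow, 2 to 12 in WT on HFD and 0 to 2 in WT on chow, too few to check the genotype labels. Levels are CPM, the counts of a gene relative to a fixed library total after TMM scaling, given as mean ± SD with n = 4. A gene is said to have risen or fallen only where edgeR's quasi-likelihood test gave an adjusted p below 0.05 across the 17318 genes. In whole liver, a lower level can come from fewer cells of a type or less RNA per cell, and these cannot be told apart.

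Per kilobase of summed exon length, which sets genes with many annotated exons lower, 2 of the 10 genes dominated in WT on chow. Reads matching several places were not counted, so genes with shared sequence, such as Gsta2 and Gstp1, can also stand too low here. Gstm1 stood highest at 1359 ± 134 CPM per kb, and Gstp1 followed at 958 ± 259. Gsta3 came next at 186 ± 13.7 and Gstt1 at 84.4 ± 9.32 CPM per kb. Gstm3 (61.0 ± 10.6), Gsta4 (55.5 ± 8.05) and Gsta2 (50.3 ± 15.0) were neighbours whose levels per kb did not differ beyond their spread. Gstm6 stood at 39.5 ± 6.44, and the lowest pair, Gstm4 at 23.4 ± 4.86 and Gstm2 at 21.2 ± 6.19 CPM per kb, also lay within their spread. In HuMgat2 on HFD the same 3 genes led in the same order, with Gstm1 at 809 ± 219 CPM per kb, and there the levels of Gstp1 (216 ± 17.9) and Gsta3 (197 ± 7.04) lay close together.

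The first comparison asked how the diet changed these genes in WT mice. 8 of the 10 fell on HFD and 0 rose, where 6.74% of all genes tested fell and 8.37% rose. Their median log2 change was -1.15, against 0.03 over all genes. The 10 genes, and the lists used below, were chosen with earlier results of these data known. Such comparisons with all genes, here and below, therefore do not test these sets. Gsta2, Gsta3, Gsta4, Gstm1, Gstm3, Gstm4, Gstm6 and Gstp1 fell, by 1.54-fold for Gstm6 to 10.2-fold for Gsta2. Gstm2 and Gstt1 did not pass the test. Without WT HFD library 4, again 8 of 10 were called lower and 0 higher.

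In HuMgat2 mice the same diet lowered 4 of the 10 and raised 0, where 6.4% of all genes fell and 7.56% rose. These were Gsta2, Gsta4, Gstm6 and Gstp1. The median log2 change of the 10 was -0.27, against -0.01 over all genes. Gsta3, Gstm2, Gstm3 and Gstm4 had log2 changes between -0.01 and 0.12, with adjusted p of 0.741 or more. The change of Gstm3 ranged from -0.606 to 0.276 with each library left out. The diet comparisons and the genotype comparisons share groups, so their values are given side by side.

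Between genotypes on chow 0 of the 10 passed the edgeR test, where 0.508% of all genes did. Unadjusted p was below 0.05 for Gstm2 and Gstm6, and DESeq2 and limma voom each called 1 gene, Gstm2. On HFD, 4 of the 10 were higher in HuMgat2 than in WT, Gsta3, Gstm1, Gstm3 and Gstm4, where 7.21% of all genes were higher. Gstp1 was the 1 gene that was lower, where 7.56% of all genes were lower. The median log2 difference of the 10 was 0.67, against -0.04 over all genes. The diet change differed between the genotypes, by the interaction test, for 2 of the 10, Gsta3 and Gstm4, where 4.87% of all genes passed.

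**Figure D1:**
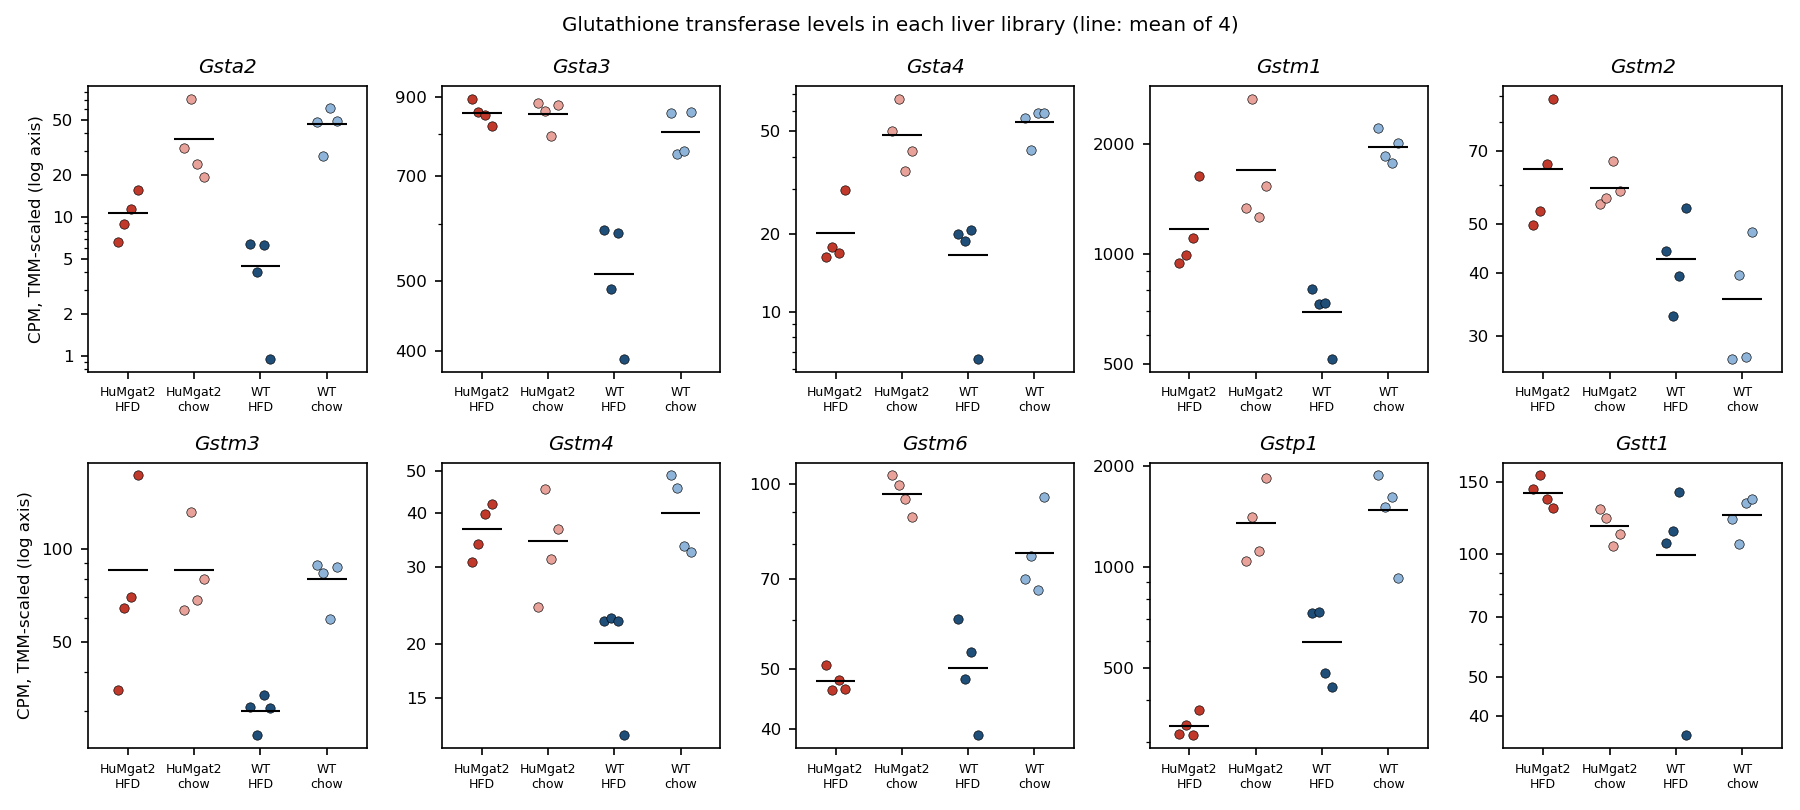
Level of each of the 10 genes in the 16 libraries, as TMM-scaled CPM on a log axis that differs between panels, with the mean of each group of 4 as a line. Gsta2, Gsta4, Gstm6 and Gstp1 are lower on HFD in both genotypes, whereas for Gsta3, Gstm3 and Gstm4 the 4 libraries of WT on HFD lie below the other 12.

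**Figure D2:**
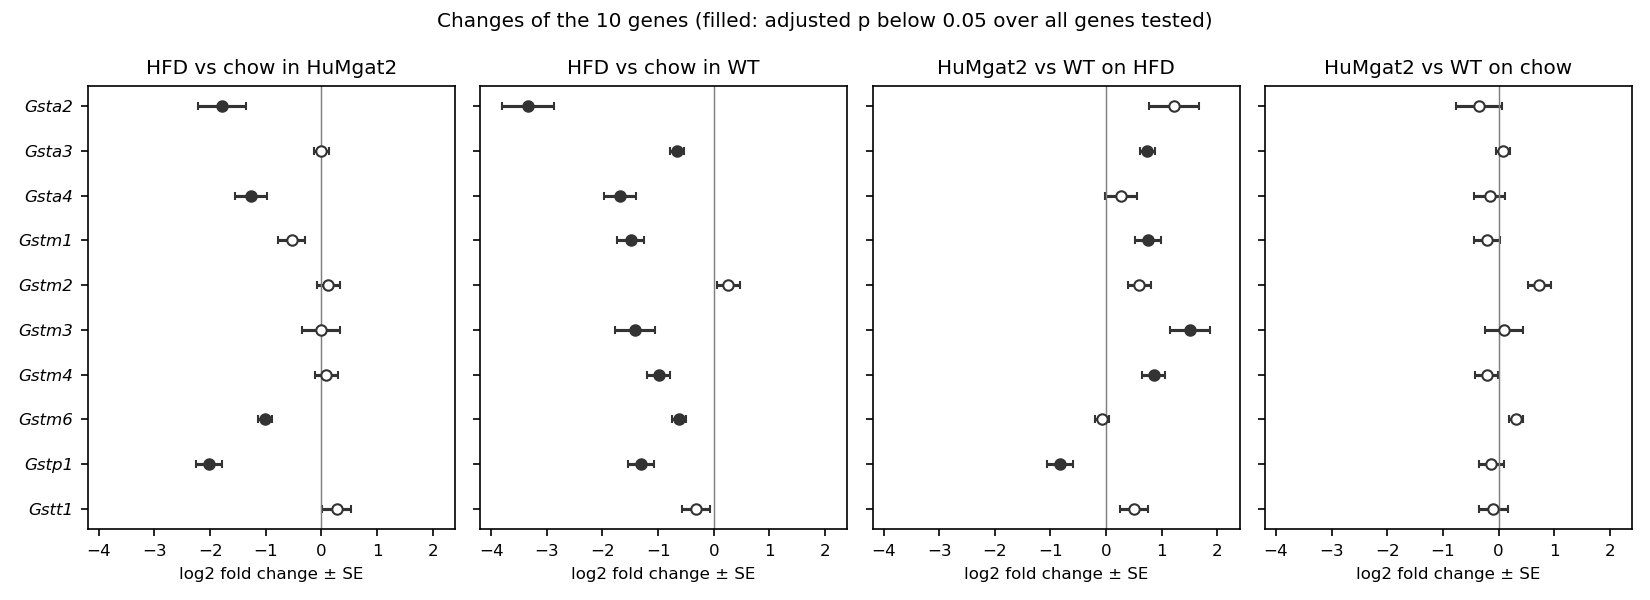
Log2 fold change ± SE of the 10 genes in the 4 comparisons, with filled points for adjusted p below 0.05 over all genes tested. 4 points are filled for diet in HuMgat2, 8 for diet in WT, 5 for genotype on HFD and 0 for genotype on chow.

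Of the alpha class, Gsta2 had the largest diet change. It encodes an inducible enzyme that also reduces lipid hydroperoxides. Gsta2 (ENSMUSG00000057933, GRCm39 chromosome 9, 78238300 to 78254440, minus strand) had 6.63, 8.99, 11.5 and 15.6 CPM in HuMgat2 on HFD, against 31.6, 70.8, 24.2 and 19.4 CPM in HuMgat2 on chow. In WT it had 6.40, 4.01, 6.28 and 0.953 CPM on HFD, against 48.4, 27.5, 60.8 and 49.5 CPM on chow. The HFD libraries of each genotype lay below its chow libraries, and library 14 of HuMgat2 on chow stood well above the other 3. Gsta2 fell 3.43-fold in HuMgat2 (log2 -1.78 ± 0.43 SE, adjusted p = 0.0107) and 10.2-fold in WT (log2 -3.35 ± 0.47, adjusted p = 0.000305). The difference between these diet changes was not called (log2 1.57 ± 0.61, adjusted p = 0.174). On HFD all 4 HuMgat2 libraries were above all 4 WT libraries, at 10.7 ± 3.83 and 4.41 ± 2.55 CPM, with adjusted p = 0.0811.

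The close copies of Gsta2 fell in WT and did not pass the test in HuMgat2. Gsta1, which encodes its closest relative, had 7.12, 13.9, 15.9 and 25.1 CPM in HuMgat2 on HFD, against 8.59, 43.4, 8.22 and 5.38 CPM in HuMgat2 on chow. In WT, Gsta1 had 2.88, 2.59, 4.25 and 1.43 CPM on HFD, against 14.9, 10.6, 15.3 and 18.7 CPM on chow. The HuMgat2 groups overlapped (adjusted p = 0.928), and in WT Gsta1 fell 5.17-fold (adjusted p = 0.012). Library 14 of HuMgat2 on chow, at 43.4 CPM, stood well above the others of its group. Gm3776 and Gsta5 likewise fell in WT, 4.82-fold and 6.98-fold, and did not pass in HuMgat2 (adjusted p = 0.966 and 0.128). The interaction test called none of Gsta1, Gm3776 and Gsta5 (adjusted p = 0.11, 0.129 and 0.193). On HFD HuMgat2 exceeded WT 5.38-fold for Gsta1 and 5.48-fold for Gm3776 (adjusted p = 0.0102 and 0.0111). The ratio of Gsta1 to Gsta2 counts lay between 1.07 and 1.61 in HuMgat2 on HFD, 0.272 and 0.613 in HuMgat2 on chow, 0.450 and 1.5 in WT on HFD, and 0.251 and 0.385 in WT on chow.

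With the counts of Gsta1 added to Gsta2, the fall in HuMgat2 was no longer called (log2 -1.02, adjusted p = 0.148), and on HFD the sum was higher in HuMgat2 (log2 1.83, adjusted p = 0.0177). With Gm3776 and Gsta5 added as well, a sum chosen after the data were seen, these values were -0.77 (adjusted p = 0.303) and 2.00 (adjusted p = 0.0126). The fall in WT was called under each sum.

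Gsta3, the most abundant alpha-class gene here and known in mice for detoxifying aflatoxin, separated the genotypes on HFD most plainly. Gsta3 (ENSMUSG00000025934, chromosome 1, 21310813 to 21335885, plus strand) had 895, 858, 850 and 821 CPM in HuMgat2 on HFD, against 883, 862, 795 and 877 CPM in HuMgat2 on chow. The WT libraries had 589, 487, 582 and 389.5 CPM on HFD, against 856, 751, 758 and 859 CPM on chow. The 4 WT HFD libraries were below the other 12 libraries, which overlapped. Gsta3 had a log2 diet change of 0.00 ± 0.13 in HuMgat2 (95% interval -0.27 to 0.28, adjusted p = 0.993) and fell 1.57-fold in WT (log2 -0.66 ± 0.13, adjusted p = 0.00325). On HFD its HuMgat2 level was 1.67-fold that of WT (adjusted p = 0.00124). The diet changes differed by 0.66 ± 0.18 on the log2 scale (adjusted p = 0.0479). That call sat at the threshold: it was lost in 13 of 16 fits that left out 1 library, with adjusted p between 0.032 and 0.105, and it held without WT HFD library 4.

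Gsta4, whose enzyme is known for conjugating 4-hydroxynonenal, fell in both genotypes. Gsta4 (ENSMUSG00000032348, chromosome 9, 78099229 to 78116631, plus strand) had 16.3, 17.9, 17.0 and 29.8 CPM in HuMgat2 on HFD, against 50.3, 66.8, 35.0 and 42.1 CPM in HuMgat2 on chow. WT livers had 20.1, 18.8, 20.8 and 6.59 CPM on HFD, against 56.6, 42.5, 59.0 and 58.8 CPM on chow. No HFD library reached the lowest chow library of either genotype. Gsta4 fell 2.4-fold in HuMgat2 (log2 -1.26 ± 0.28, adjusted p = 0.00669) and 3.23-fold in WT (log2 -1.69 ± 0.29, adjusted p = 0.00116). The difference between these changes was 0.43 on the log2 scale, with a 95% interval of -0.41 to 1.27. On HFD the genotypes overlapped (adjusted p = 0.552).

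The mu-class genes lie in a cluster on chromosome 3. Of the 5 members 4 fell with HFD in WT and 1 in HuMgat2, where 6.74% and 6.4% of all genes fell. Among these 5 the interaction test called only Gstm4 (adjusted p = 0.0432). Gstm1, the main mu-class gene of mouse liver, had 945, 993, 1106 and 1634 CPM in HuMgat2 on HFD, against 1334, 2653, 1260 and 1534 CPM in HuMgat2 on chow. In WT, Gstm1 (ENSMUSG00000058135, 107919571 to 107925289, minus strand) had 804, 731, 734 and 517 CPM on HFD, against 2216, 1853, 1777 and 2013 CPM on chow. The WT groups stood far apart, while library 12 of HuMgat2 on HFD lay among the chow libraries. Gstm1 fell 2.82-fold in WT (adjusted p = 0.000797), and its log2 change in HuMgat2 was -0.54 ± 0.23 (adjusted p = 0.147). The interaction of 0.96 ± 0.33 did not pass (adjusted p = 0.118). DESeq2 and limma voom called the interaction (adjusted p = 0.0408 and 0.0271), as did edgeR without HuMgat2 chow library 14 (adjusted p = 0.0123). On HFD Gstm1 was higher in HuMgat2 by 1.68-fold (log2 0.75 ± 0.24, adjusted p = 0.0425). That call was lost in 9 of 16 fits that left out 1 library, among them the fit without WT HFD library 4 (log2 0.63, adjusted p = 0.0853) and that without HuMgat2 HFD library 12 (log2 0.55, adjusted p = 0.142).

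Gstm3 varied widely among the libraries of HuMgat2 on HFD. Gstm3 (ENSMUSG00000004038, 107871012 to 107876599, minus strand) had 35.0, 64.2, 69.9 and 173 CPM in HuMgat2 on HFD, against 63.3, 131.6, 68.6 and 79.8 CPM in HuMgat2 on chow. In WT the values were 30.8, 25.0, 33.6 and 30.6 CPM on HFD, against 89.1, 83.8, 59.5 and 87.6 CPM on chow. The WT HFD libraries were tightly grouped and below all others, and library 12 of HuMgat2 on HFD was the highest of all 16. Gstm3 fell 2.67-fold in WT (log2 -1.42 ± 0.35, adjusted p = 0.0139), while in HuMgat2 the log2 change was -0.01 ± 0.34 (95% interval -0.74 to 0.72). With each library left out, the HuMgat2 change ranged from -0.606 to 0.276, with adjusted p of 0.158 or more. The HuMgat2 level on HFD was 2.85-fold that of WT (log2 1.51 ± 0.36, adjusted p = 0.0096), and without HuMgat2 HFD library 12 the log2 difference was 0.92. The interaction of 1.41 ± 0.49 did not pass (adjusted p = 0.122).

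Gstm4, like Gsta3, was lowest in WT on HFD. Gstm4 (ENSMUSG00000027890, 107947724 to 107952210, minus strand) had 30.8, 34.0, 39.7 and 42.0 CPM in HuMgat2 on HFD, against 24.3, 45.3, 31.3 and 36.6 CPM in HuMgat2 on chow. Among WT libraries it had 22.6, 22.9, 22.5 and 12.3 CPM on HFD, against 48.7, 45.5, 33.5 and 32.4 CPM on chow. The WT HFD libraries were the lowest 4 of the 16. Gstm4 fell 1.98-fold in WT (log2 -0.99 ± 0.21, adjusted p = 0.00503), and its log2 change in HuMgat2 was 0.09 ± 0.20 (adjusted p = 0.828). Gstm4 on HFD was 1.81-fold higher in HuMgat2 (adjusted p = 0.0115). The diet changes differed by 1.07 ± 0.29 on the log2 scale (adjusted p = 0.0432). This call was lost in 10 of 16 fits without 1 library, with adjusted p between 0.0177 and 0.1.

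Gstm6 fell in both genotypes. Gstm6 (ENSMUSG00000068762, 107846163 to 107851065, minus strand) had 50.8, 46.3, 48.0 and 46.3 CPM in HuMgat2 on HFD, against 103.2, 99.5, 94.4 and 88.2 CPM in HuMgat2 on chow. In WT it had 60.3, 48.2, 53.3 and 39.0 CPM on HFD, against 70.2, 76.4, 67.2 and 95.3 CPM on chow. The HuMgat2 libraries of each diet lay close together, and the 2 HFD groups overlapped. Gstm6 fell 2.01-fold in HuMgat2 (log2 -1.01 ± 0.12, adjusted p = 6.21e-05) and 1.54-fold in WT (log2 -0.62 ± 0.12, adjusted p = 0.00362). The interaction of -0.39 ± 0.18 did not pass (adjusted p = 0.249).

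Gstm2 was the 1 mu-class member that no diet comparison called. Gstm2 (ENSMUSG00000040562, 107889018 to 107893769, minus strand) had 50.0, 53.2, 65.9 and 88.9 CPM in HuMgat2 on HFD, against 54.9, 56.4, 66.9 and 58.3 CPM in HuMgat2 on chow. The WT libraries had 44.3, 32.8, 39.5 and 54.0 CPM on HFD, against 27.0, 39.7, 27.2 and 48.3 CPM on chow. All 4 HuMgat2 chow libraries lay above all 4 WT chow libraries. The log2 difference between the genotypes was 0.60 ± 0.20 on HFD (adjusted p = 0.0576) and 0.73 ± 0.21 on chow (adjusted p = 0.157). DESeq2 called both differences (adjusted p = 0.0286 and 0.0453), as did limma voom (adjusted p = 0.0106 and 0.0374). Without WT HFD library 4 edgeR called the difference on HFD (adjusted p = 0.0257).

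Gstp1 of the pi class, which is also known for binding the stress kinase JNK, went lower in HuMgat2 on HFD than in any other group. Gstp1 (ENSMUSG00000060803, chromosome 19, 4085407 to 4087985, minus strand) had 316, 336, 314 and 373 CPM in HuMgat2 on HFD, against 1044, 1415, 1117 and 1850 CPM in HuMgat2 on chow. WT livers had 728, 735, 482 and 438 CPM on HFD, against 1879, 1511, 1615 and 927 CPM on chow. The 4 groups fell into 3 levels with no overlap: HuMgat2 on HFD, WT on HFD, and both chow groups together. Gstp1 fell 4.05-fold in HuMgat2 (log2 -2.02 ± 0.24, adjusted p = 4.03e-05) and 2.49-fold in WT (log2 -1.32 ± 0.23, adjusted p = 0.00165). Gstp1 on HFD was 1.78-fold lower in HuMgat2 (log2 -0.83 ± 0.23, adjusted p = 0.024). This was the opposite direction to Gsta3, Gstm1, Gstm3 and Gstm4. The call on HFD was lost without any 1 of HuMgat2 HFD libraries 9, 10 and 11 or WT HFD libraries 1 and 2, with adjusted p of at most 0.0691. The interaction of -0.70 ± 0.33 did not pass (adjusted p = 0.263).

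The counts of the other pi-class genes fell into 2 kinds. Gstp2 and the pseudogene Gstp-ps had a nearly fixed ratio to Gstp1 in all 16 libraries, 0.461 to 0.519 for Gstp2 and 0.213 to 0.259 for Gstp-ps. The cause of this ratio was not tested, and the values of Gstp2 and Gstp-ps cannot be read as independent of Gstp1. Gstp3, with no 75-base window in common with Gstp1, went the other way. It had 14.7, 17.0, 19.0 and 19.3 CPM in HuMgat2 on HFD, against 8.01, 11.8, 5.80 and 7.12 CPM in HuMgat2 on chow. In WT, Gstp3 had 10.1, 12.7, 12.3 and 9.77 CPM on HFD, against 7.84, 8.84, 7.07 and 10.5 CPM on chow. Its libraries of HuMgat2 on HFD lay above the other 12. Gstp3 rose 2.13-fold with HFD in HuMgat2 (adjusted p = 0.000891) and did not pass in WT (adjusted p = 0.163). With Gstp2 summed into Gstp1, the calls of Gstp1 were the same in all 5 comparisons.

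**Figure D3:**
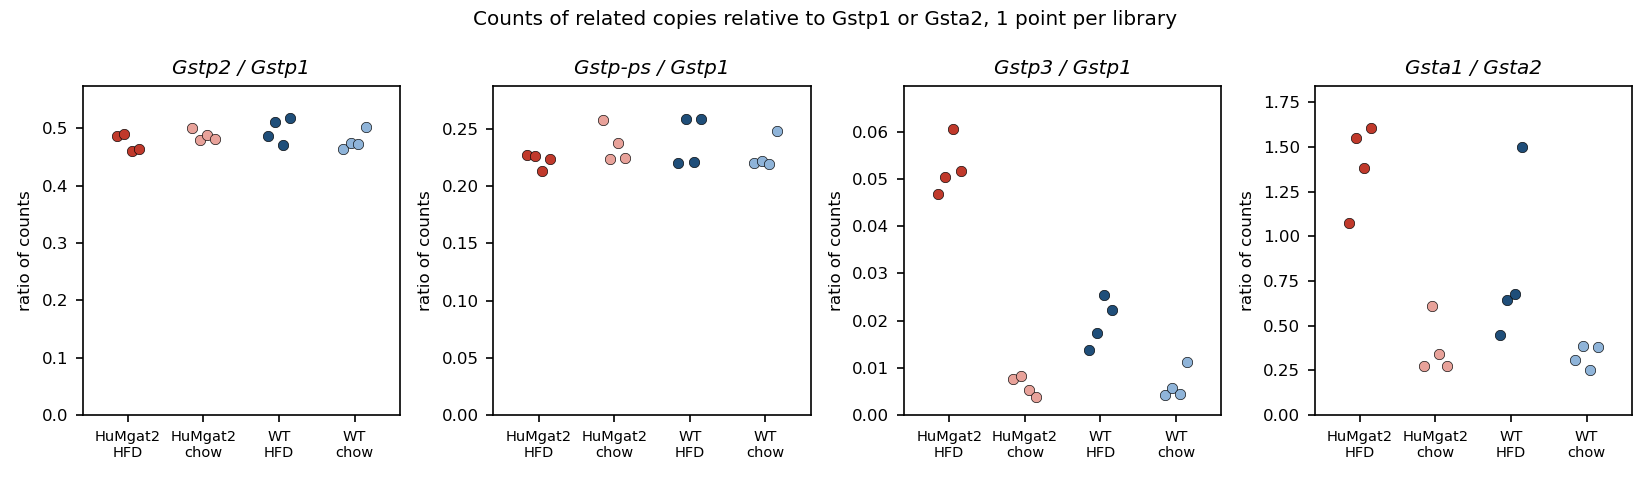
Ratio of the counts of a related copy to those of Gstp1 or Gsta2 in each of the 16 libraries, by group, on linear axes that start at 0. Gstp2 and Gstp-ps keep close to 1 ratio to Gstp1, whereas the ratios of Gstp3 to Gstp1 and of Gsta1 to Gsta2 are highest in HuMgat2 on HFD by their group medians.

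Gstt1 of the theta class, which metabolizes small halogenated compounds, was called in no comparison. Gstt1 (ENSMUSG00000001663, chromosome 10, 75619647 to 75634418, minus strand) had 144, 156, 136 and 129 CPM in HuMgat2 on HFD, against 129, 123, 105 and 112 CPM in HuMgat2 on chow. In WT the values were 106, 114, 142 and 35.9 CPM on HFD, against 122, 106, 133 and 137 CPM on chow. WT HFD library 4 was the lowest of all 16, and in HuMgat2 the HFD libraries lay above the chow libraries. The log2 diet change of Gstt1 was 0.27 ± 0.26 in HuMgat2 (adjusted p = 0.536) and -0.32 ± 0.26 in WT (adjusted p = 0.446), and the WT value was -0.04 without WT HFD library 4.

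Sums were taken over the genes of each class. Pi-class genes (Gstp1, Gstp2 and Gstp3) summed to 511 ± 40.6 CPM in HuMgat2 on HFD and 2025 ± 535 CPM in HuMgat2 on chow, and to 904 ± 238 CPM in WT on HFD and 2197 ± 573 CPM in WT on chow. Mu-class genes summed to 1441 ± 395 and 2030 ± 695 CPM in HuMgat2 on HFD and on chow, and to 876 ± 135 and 2242 ± 213 CPM in WT on HFD and on chow. For the alpha class, which Gsta3 dominates, the sums in HuMgat2 were 919.5 ± 9.58 CPM on HFD and 976.5 ± 92.7 CPM on chow, and in WT 539 ± 105 CPM on HFD and 941 ± 76.1 CPM on chow. Theta-class genes summed to 192.6 ± 3.0 and 190.2 ± 12.6 CPM in HuMgat2 on HFD and on chow, and to 135.4 ± 61.9 and 195.3 ± 24.3 CPM in WT on HFD and on chow, with 47.0 CPM in WT HFD library 4. The 10 genes together took 2767 ± 397 CPM in HuMgat2 on HFD, 4384 ± 906 CPM in HuMgat2 on chow, 2068 ± 383 CPM in WT on HFD and 4712 ± 483 CPM in WT on chow.

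Among the 18 other genes of the family that were tested, 4 fell and 2 rose with HFD in HuMgat2, where 6.4% of all genes fell and 7.56% rose. In WT 10 fell and 1 rose, where 6.74% of all genes fell and 8.37% rose. Between genotypes on HFD 6 were higher and 2 lower in HuMgat2, where 7.21% of all genes were higher and 7.56% lower. On chow 0 were called, where 0.508% of all genes were (unadjusted p was below 0.05 for 2). Gsta5 and Gstm2-ps1 were added to this list after the table was seen. Several of these genes share sequence with members, as shown above, so their counts may not be independent. Without WT HFD library 4, 1 gene was called on chow. Gsto1 of the omega class fell 1.45-fold in HuMgat2 and 1.47-fold in WT (adjusted p = 0.00623 and 0.00506). Hpgds, which makes prostaglandin D2 in blood cells, rose 1.97-fold in WT (adjusted p = 0.0286), where 7 of 9 macrophage markers also rose, and its share in that change was not tested. Gstt4, Gsto2 and Mgst2 had at most 1, 5 and 7 counts in any library and were not tested.

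Mgst3, a membrane-bound transferase that reduces lipid hydroperoxides, was the 1 of these 18 genes whose diet change differed between the genotypes by the interaction test. By that test 4.87% of all genes passed. Mgst3 had 20.0, 20.4, 17.8 and 21.6 CPM in HuMgat2 on HFD, against 7.23, 15.5, 6.55 and 7.21 CPM in HuMgat2 on chow. Among WT libraries it had 4.93, 4.67, 6.08 and 4.21 CPM on HFD, against 15.3, 10.2, 12.2 and 11.9 CPM on chow. The HuMgat2 HFD libraries were the highest of the 16 and the WT HFD libraries the lowest. Mgst3 rose 2.17-fold in HuMgat2 (log2 1.12 ± 0.22, adjusted p = 0.00277) and fell 2.47-fold in WT (log2 -1.31 ± 0.23, adjusted p = 0.00155). The changes differed by 2.42 ± 0.32 on the log2 scale (adjusted p = 0.000365, and 0.000341 without WT HFD library 4). Mgst1, the abundant microsomal enzyme, did not pass in either genotype (1740 CPM on HFD and 1508 CPM on chow in HuMgat2, 1960 CPM on HFD and 1539 CPM on chow in WT).

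**Figure D4:**
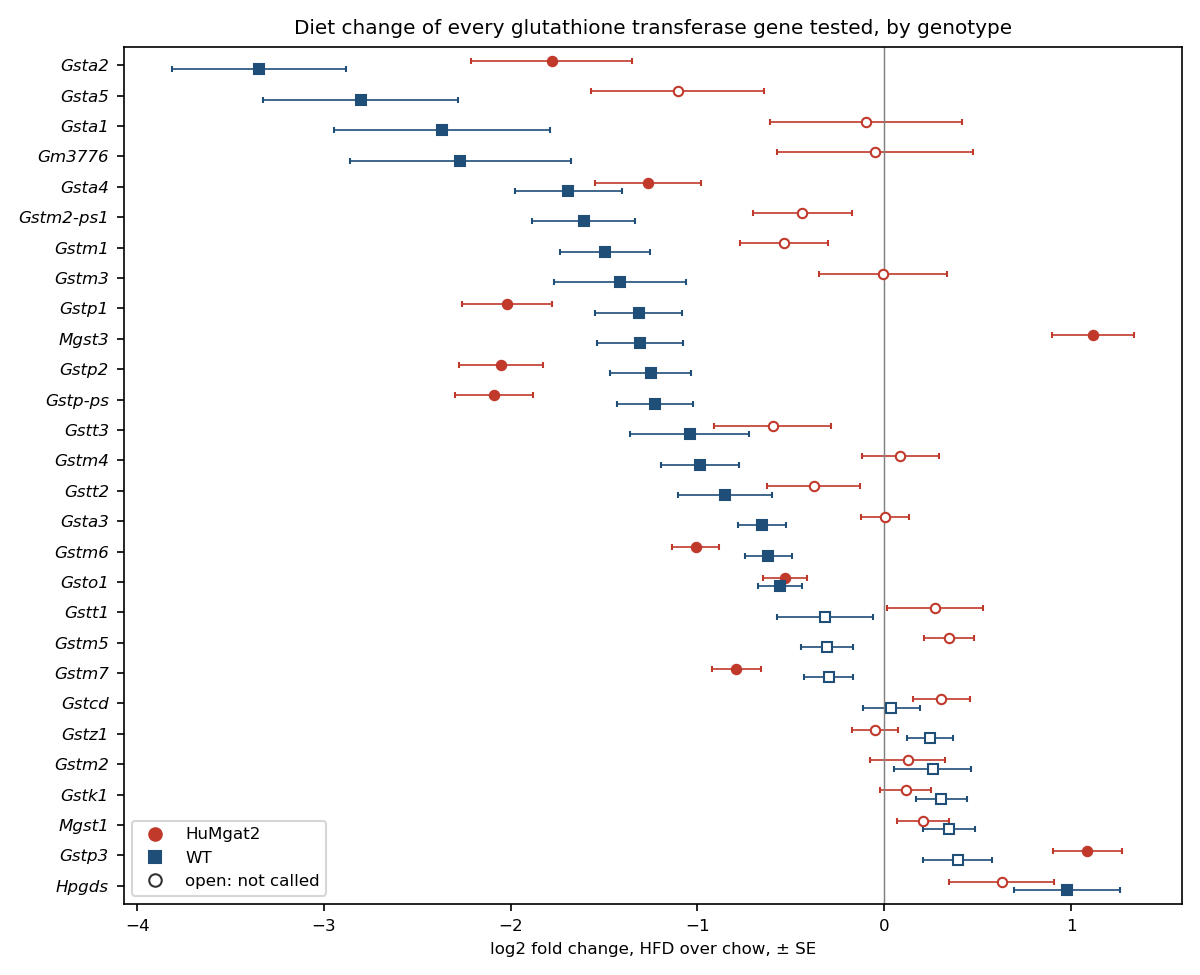
Log2 fold change ± SE of HFD over chow for the 28 family genes tested, in HuMgat2 (circles) and in WT (squares), ordered by the WT change. Filled symbols passed the test; Mgst3 is the gene with called changes in opposite directions.

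Within groups, after each group's mean was removed, pairs of members had Pearson correlations over the 16 libraries from -0.458 (Gstm2 and Gstp1) to 0.933 (Gsta2 and Gsta4), given as a description. Gsta3 and Gstt1 had an r of 0.844 and Gstm1 and Gstm3 of 0.762, while Gsta3 and Gstm3 had -0.024 and Gstm2 and Gstt1 -0.449. The points share library depth and, for Gstm1 and Gstm3, sequence. Libraries 12 and 14 were high in Gsta2, Gsta4, Gstm1 and Gstm3 within their groups. Library 4 was low in Gsta2, Gsta4 and Gstt1, at -1.84, -1.19 and -1.30 on the log2 scale relative to its group's mean. Gsta3 stood at -0.37 there. The correlations above, such as those of Gsta2 with Gsta4 and Gsta3 with Gstt1, include library 4 and were not taken without it.

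**Figure D5:**
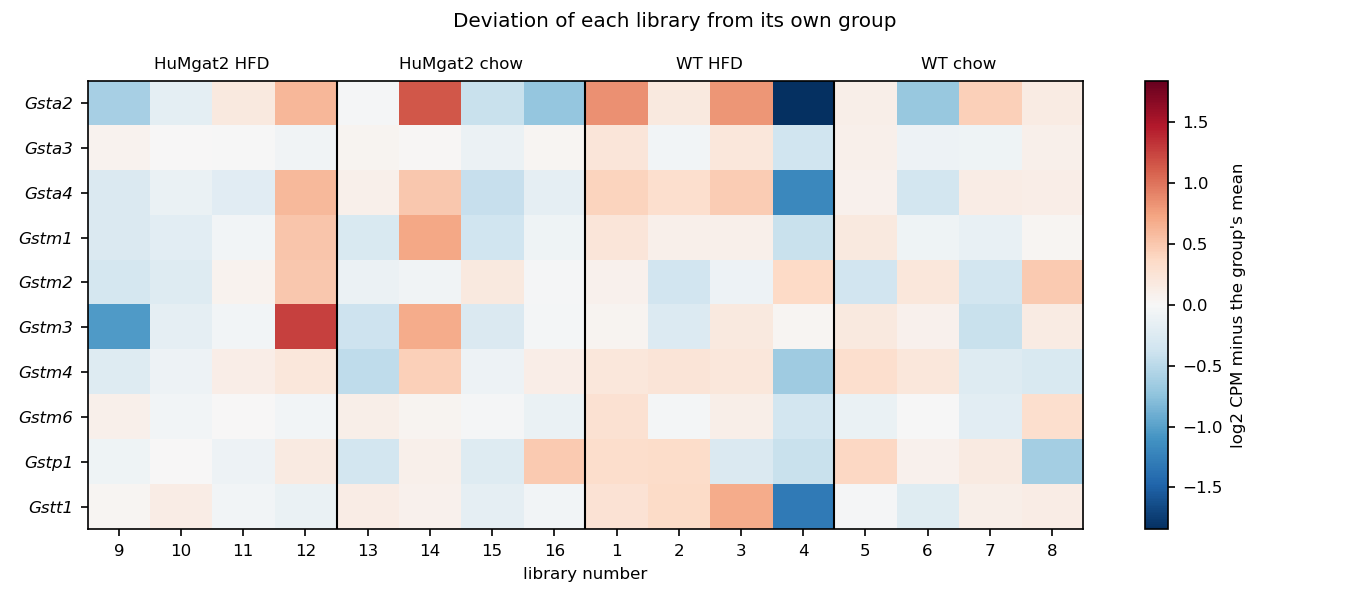
Deviation of each library from the mean of its own group, in log2 CPM, for the 10 genes (rows) and 16 libraries (columns, by library number). WT HFD library 4 is low in Gsta2, Gsta4 and Gstt1, and libraries 12 and 14 are high in Gstm1 and Gstm3.

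By Pearson correlation of log2 CPM over the 16 libraries, the non-member genes most like each called member were as follows. Gsta2 was closest to Gsta5 (0.969), Cryl1 (0.955) and Cnot1 (0.948). Gsta3 was closest to Creg1 (0.974), Psmd11 (0.95) and Maoa (0.949), and Gsta4 was close to Cryl1 (0.947) and Bdh2 (0.946). Gstm1 was closest to Gstm2-ps1 (0.978), Lrrc58 (0.955) and Cryl1 (0.952), and Gstm3 to Gstm2-ps1 (0.868), Gsta1 (0.864) and Gm3776 (0.85). Gstm4 was closest to the aldehyde oxidase Aox1 (0.942), Tfcp2l1 (0.924) and Ugt1a9 (0.923). Gstm6 was closest to the cytochrome P450 gene Cyp2c55 (0.967), Tiam2 (0.951) and Foxp1 (0.946). Gstp1 was closest to Gstp2 (0.999), Gstp-ps (0.995) and Cyp4f13 (0.965). The correlations include the differences between the groups.

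The counts of listed genes that follow can be read against the shares of all genes tested, 7.56% higher and 6.4% lower with HFD in HuMgat2, 8.37% and 6.74% in WT, and 7.21% and 7.56% in HuMgat2 against WT on HFD. The lists were also chosen with earlier results of these data known, so the shares do not test them. Of 14 genes of glutathione synthesis and turnover, 3 fell and 1 rose with HFD in HuMgat2, and 5 fell and 2 rose in WT. Between genotypes on HFD, 3 were higher and 1 lower in HuMgat2 (3 and 0 without WT HFD library 4). Gclc, whose protein catalyses the first and limiting step, had 460.5 ± 28.0 CPM in HuMgat2 on HFD and 163.6 ± 46.1 CPM in WT on HFD, 2.81-fold higher in HuMgat2 (adjusted p = 4.58e-05). Gss, which completes glutathione, rose 1.4-fold in HuMgat2 (adjusted p = 0.00611) and fell 1.4-fold in WT (adjusted p = 0.00715). Its diet changes differed by 0.97 on the log2 scale (adjusted p = 0.0015).

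NRF2 targets outside the family were mostly higher in HuMgat2 than in WT on HFD. Of 19 such genes, 6 rose and 1 fell with HFD in HuMgat2, and 0 rose and 4 fell in WT. On HFD 12 were higher and 1 lower in HuMgat2 than in WT. On chow 0 were called, where 0.508% of all genes were (unadjusted p was below 0.05 for 2). The interaction called 9 higher and 1 lower, where it called 2.61% of all genes higher and 2.26% lower. Without WT HFD library 4 the count on HFD was 14 higher and 1 lower. Ugdh, which makes UDP-glucuronic acid, had 217.5 ± 26.1 CPM in HuMgat2 on HFD and 87.2 ± 15.7 CPM in WT on HFD (adjusted p = 7.24e-06). Tkt and Pgd of the pentose phosphate pathway were 2.31-fold and 2.56-fold higher in HuMgat2 on HFD (adjusted p = 5.38e-06 and 6.5e-06). Osgin1 was the 1 that was lower, by 1.92-fold (adjusted p = 0.014).

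Of 12 regulators, 1 rose and 2 fell with HFD in HuMgat2, where 7.56% of all genes rose and 6.4% fell, and 2 rose and 2 fell in WT. On HFD 2 were higher and 2 lower in HuMgat2. Nfe2l2, which encodes NRF2, had 84.4 ± 10.8 CPM in HuMgat2 on HFD and 52.1 ± 4.84 CPM in WT on HFD, 1.62-fold higher in HuMgat2 (adjusted p = 0.000746). Bach1, whose protein competes with NRF2 for its sites, was 1.86-fold lower in HuMgat2 on HFD (adjusted p = 8.37e-05). Keap1, whose protein marks NRF2 for degradation, was 1.3-fold higher (adjusted p = 0.00558). These are mRNA levels, and the activity of the proteins was not measured.

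Of 18 targets of CAR and PXR, 11 fell and 1 rose with HFD in HuMgat2 (11 and 3 without WT HFD library 4), and 9 fell and 3 rose in WT (8 and 3 without it). Cyp2b10, the standard CAR target, averaged 0.535 CPM in HuMgat2 on HFD and 14.1 CPM in HuMgat2 on chow (adjusted p = 1.33e-05), and 0.128 CPM in WT on HFD and 7.94 CPM in WT on chow (adjusted p = 3.28e-05). Cyp2c55, the gene most like Gstm6, fell 13.7-fold in HuMgat2 and 7.17-fold in WT (adjusted p = 1.34e-06 and 2.63e-05). Of 4 AHR targets, 2 fell in HuMgat2, and 1 fell and 1 rose in WT, where 0 were called without WT HFD library 4. Cyp1a2 fell 10.4-fold in HuMgat2 (adjusted p = 3.05e-06) and 1.79-fold in WT (adjusted p = 0.0419), and the WT call was lost without that library.

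Of 12 male-biased liver genes, 8 fell with HFD in HuMgat2 (11 without WT HFD library 4) and 1 in WT, and on HFD 6 were lower in HuMgat2 (10 without WT HFD library 4). Hsd3b5 had 0.344 CPM in HuMgat2 on HFD and 95.4 CPM in WT on HFD (adjusted p = 1.38e-05). Of 11 female-biased genes, 4 rose and 4 fell in HuMgat2, and 0 rose and 5 fell in WT. On HFD 5 of these were higher and 2 lower in HuMgat2 (5 and 4 without WT HFD library 4). The labels used here give no sex, and whether these genes are linked to the Gstp1 result was not tested.

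Of 12 glutathione peroxidases and other users of glutathione, 3 rose and 1 fell in HuMgat2, and 1 rose and 1 fell in WT. Gpx4, which reduces lipid hydroperoxides in membranes, rose 1.62-fold in HuMgat2 (adjusted p = 0.00081) and was 1.38-fold higher than in WT on HFD (adjusted p = 0.014). Of 8 exporters of conjugates, 0 were called in HuMgat2 and 2 fell in WT, Abcc3 (1.82-fold, adjusted p = 0.0197) and Abcc4 (2.16-fold, adjusted p = 0.0196). Unadjusted p was below 0.05 for 2 exporters in HuMgat2, and without WT HFD library 4 edgeR called 1 there and 1 higher in WT.

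Markers of other liver cells moved with the diet as well. Of 9 macrophage markers, 2 rose in HuMgat2 and 7 in WT. Their summed levels were 277 to 336 CPM in HuMgat2 on HFD and 166 to 218 CPM in HuMgat2 on chow. In WT the sums were 236.5 to 372.9 CPM in HFD libraries 1, 2 and 3, 926 CPM in library 4, and 147.5 to 251.5 CPM on chow. The count of macrophage markers without WT HFD library 4 was not taken. The summed adipocyte markers stood at 3.27 to 7.82 CPM in HuMgat2 on HFD and 0 to 0.340 CPM in HuMgat2 on chow. They stood at 78.0 to 120.6 CPM in WT HFD libraries 1, 2 and 3, at 0.161 CPM in library 4, and at 0.143 to 0.429 CPM in WT on chow. In each of these WT HFD libraries 3 of the 4 adipocyte markers had 0 counts, so the sum there is 1 gene, Cfd. In the HuMgat2 HFD libraries 1 to 3 of the 4 had 0 counts. The marker sums are CPM without TMM scaling. Of 7 stellate cell markers, 6 rose in HuMgat2 and 2 in WT. Of 8 hepatocyte markers, 4 fell in HuMgat2 and 0 in WT, with summed levels of 74710 to 85150 CPM in HuMgat2 on HFD and 69440 to 103200 CPM in HuMgat2 on chow. In WT the hepatocyte sums were 39910 to 72750 CPM on HFD and 86060 to 102300 CPM on chow, without overlap. The part of these shifts in the transferase results was not tested.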

How the data were processed

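Liver RNA of HuMgat2 and WT mice on HFD or chow was sequenced from Ribo-Zero Plus stranded total RNA libraries, per the labels' protocols. The 64 deposited records are 4 per library, which gave 16 libraries, 4 in each of 4 groups, with total counts of 12.4 to 25.8 M. The values are raw counts of read pairs per gene name, made by the authors with featureCounts 2.0.1 on Ensembl release 103 (GRCm39), per the file headers. STAR 2.7 and DESeq2 1.26.0 are named in the submitters' processing notes. The counting call in the headers sets neither strand nor multi-mapping reads, so antisense reads are not told apart and reads matching several places are not counted. All count columns were used (0 were left out).

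Counts were filtered with filterByExpr, scaled by TMM and tested with edgeR 4.0.16 (R 4.3.3) by the quasi-likelihood test in 1 fit of the 4 groups, two-sided, with Benjamini-Hochberg adjustment over all 17318 genes tested. The 5 comparisons were HFD against chow in each genotype, HuMgat2 against WT on each diet, and their interaction. Intervals and SEs come from that fit. Other settings tried were limma 3.58.1 voom with sample quality weights, DESeq2 1.42.0, edgeR with DESeq2 scaling, other filters, fits of the compared groups only, summed copies, and each library left out. The sum of all copies, and the list counts without WT HFD library 4, were chosen after seeing the data. All members were named, other family genes freely, from each list up to 4 called genes per comparison in order of adjusted p, and for each called member its 3 most correlated genes with a mean of at least 1 CPM, of which 1 is not reported here. The members and lists were chosen with earlier results of these data known. Shared 75-base windows were counted in GENCODE M21 transcripts. The fit was tested on simulated data.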

Additional observations from a re-analysis of the deposited data

Results flagged for a closer look

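In 40 groups of 4 libraries, 1 for each of the 10 genes and 4 groups, 4 held a library whose gap to the nearest of the others exceeded Dixon's 95% critical value, as a share of the group's range. Chance gives such a gap in about 1 in 20 groups. Gsta4 had 29.8 CPM in HuMgat2 HFD library 12, against 16.3 to 17.9 CPM in the other 3. In WT HFD library 4 it had 6.59 CPM, against 18.8 to 20.8 CPM in the others of its group, and in WT chow library 6 it had 42.5 CPM, against 56.6 to 59.0 CPM. Gstm4 had 12.3 CPM in WT HFD library 4, against 22.5 to 22.9 CPM in the others. The diet change of Gsta3 differed between HuMgat2 and WT by 0.66 on the log2 scale (adjusted p = 0.0479), and that of Gstm4 by 1.07 (adjusted p = 0.0432), both by the edgeR interaction test.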

How the results depend on the processing

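The count of called members in WT was 8 under all 25 alternatives, and in HuMgat2 it was 3 or 4. On chow it was 1 with DESeq2 and 1 with limma voom, in both Gstm2, and 0 to 0 with each library left out. On HFD it ranged from 3 to 6 with each library left out. The interaction count of 2 was 1 with DESeq2 size factors, 1 with no filter, 4 with DESeq2 and 4 with limma voom, and 0 to 3 with each library left out. The cause was not tested. Of 800 log2 values without 1 library, 743 kept direction and call, 37 lost the call, 7 gained it and 13 changed sign. Of 440 under other settings, 417, 5, 12 and 6 did so.

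The sign changes were in small values. In HuMgat2, the diet change of Gsta3 was -0.01 with DESeq2 size factors, -0.01 with DESeq2 and -0.006 with only the compared groups, and that of Gstm3 was 0.005 with no filter and 0.008 with a mean of at least 1 CPM. Gsta4 on HFD was -0.011 with limma voom. With each library left out, diet changes in HuMgat2 ranged from -0.03 to 0.025 for Gsta3, -0.606 to 0.276 for Gstm3, -0.068 to 0.23 for Gstm2 and -0.045 to 0.249 for Gstm4. Differences on chow ranged from -0.179 to 0.225 for Gstm3 and -0.315 to 0.007 for Gstp1, and on HFD from -0.17 to 0.031 for Gstm6.

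No paired analysis was possible because the library numbers are not shared between groups. The lowest count of a member was 12, for Gsta2 in WT HFD library 4.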
